A study of Mus musculus with 12 samples.

Results

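The response of Gne KO Sol8 cells to the switch from growth medium to differentiation medium was described from raw read counts of 6 libraries, 3 of Gne KO differentiated cells and 3 of Gne KO proliferative cells, out of 12 libraries in the series. All genes with at least 10 counts summed over the 12 libraries were taken, which left 20415 of the 54838 genes listed, and 20325 of them had at least 1 count in a Gne KO library. Sol8 is a mouse myoblast line whose cells divide in rich serum and can leave the cell cycle, fuse and build myotubes in lean serum. Proliferative cells were kept in fetal calf serum and differentiated cells in a lower share of horse serum, so that the amount and the kind of serum changed together. Both Gne KO groups came from 1 CRISPR/Cas9 clone with a short frame-shifting deletion in exon 3 of Gne on both copies, and the other 6 libraries came from WT Sol8 cells in the same 2 states, with 3 libraries each. The effect of the deletion and a property of that clone cannot be told apart. Nothing in the labels gives the number of days in differentiation medium.

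Gne encodes the bifunctional enzyme that starts the synthesis of sialic acid, the sugar that caps many glycoproteins of the muscle surface, and its recessive mutations cause GNE myopathy. When myoblasts are deprived of serum, genes of DNA replication and mitosis are normally switched off. Id proteins, which keep MyoD from the partner proteins with which it binds DNA, are lost. MyoD, myogenin and MEF2 factors then turn on the sarcomere genes. Serum is also a source of growth factors and of signals that act through actin on the transcription factor SRF, and its removal lets FoxO factors enter the nucleus.

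A normalised read count is here the count of a gene divided by the library size scaled by trimmed mean of M values (TMM), times the mean of these sizes. Log2 fold changes are differentiated against proliferative and come, with their standard errors (SE), from 1 limma voom fit over the 12 libraries. Genes whose p, adjusted by Benjamini-Hochberg over all 20415, was under 0.05 passed the test, and "rose" or "fell" is written of such genes only. Where libraries are said not to overlap between the states, this describes the named genes only. The share of all genes without such overlap is not given. P-values measure the spread between the libraries of a group, which the labels call biological replicates, and the study describes RNA both from independent cultures and in triplicate for each sample, so that which of these the libraries stand for cannot be told.

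The 3 proliferative Gne KO libraries held 28349835, 26706898 and 28501346 counts and the 3 differentiated ones 29029900, 22612038 and 26639637. Gne itself (ENSMUSG00000028479, chr4:44034075-44084177 on GRCm38) was still counted in every Gne KO library. Its normalised read counts were 232, 333 and 344 in the proliferative and 205, 209 and 212 in the differentiated libraries (log2 fold change −0.51, SE 0.14, adjusted p = 0.0051), against means of 270.3 ± 12.9 and 275 ± 10.6 (SD, n = 3) in the WT groups. Counts summed over the whole gene do not test a short deletion. The muscle intermediate filament gene Des was read at 9224, 16371 and 14409 in proliferative and 8672, 8055 and 7905 in differentiated libraries, and Myod1, the defining marker of myoblasts, in every library.

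The proliferative Gne KO libraries stood apart from the other 9 in several technical measures. Their TMM factors were 0.945, 0.857 and 0.863 against 0.982 to 1.08, and the genes with at least 1 count numbered 20318, 19412 and 19225 against 20858 to 21953. The level of a gene in a library correlated across genes with its exonic GC content at Spearman 0.348, 0.531 and 0.608 in these 3 libraries, between −0.135 and −0.243 in the differentiated Gne KO libraries and between −0.306 and −0.442 in the WT libraries. Among 10676 genes with a mean normalised read count of at least 100, the median change of Gne KO cells was 0.67 in the lowest of 5 equal bins of GC content and −0.45 in the highest. Replicate 1 of the proliferative group lay farthest from its replicates, with an SD of 0.400 on the log2 scale against 0.302 and 0.305 in the other 2 and 0.132 to 0.146 in the differentiated Gne KO libraries (0.0893 to 0.291 in the WT libraries). A second value, called GC-adjusted, was therefore computed after a smooth trend in GC content and length was removed from each library. GC content and length were those of the longest transcript of each gene. The GC-adjusted value is given wherever it ended a call or moved a log2 fold change by a factor above 1.5. The part of these differences in the results was not tested beyond that.

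**Figure D1:**
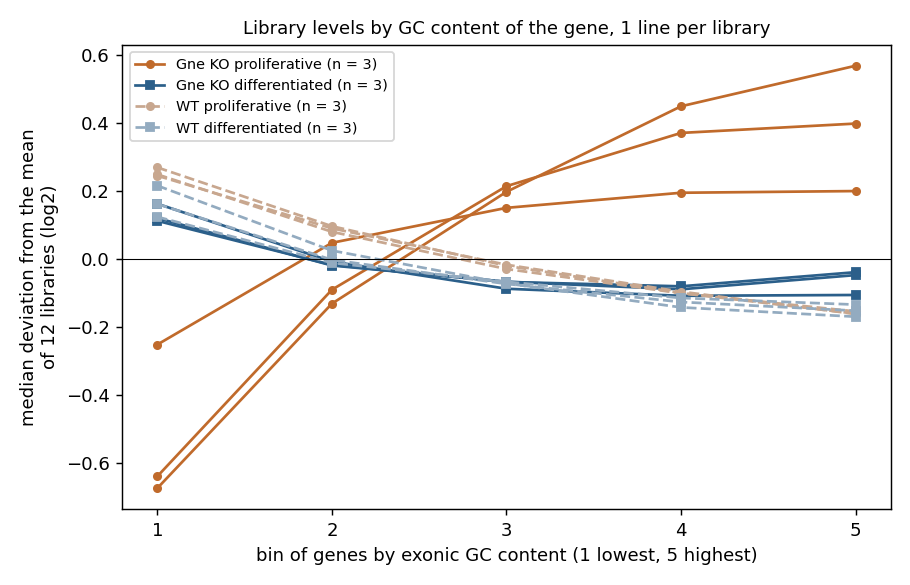
Median deviation of each library from the mean of the 12 libraries on the log2 scale (y axis) in 5 equal bins of 10676 genes ordered by exonic GC content (x axis), 1 line per library and 3 lines per group. The 3 proliferative Gne KO lines run from −0.25, −0.64 and −0.68 in the lowest bin up to 0.20, 0.40 and 0.57 in the highest, against the slope of the other 9 libraries.

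In Gne KO cells 5863 genes (28.7%) passed the test as higher and 5648 (27.7%) as lower in the differentiated state, with a median log2 fold change over all genes of 0.07. The study's effect filter, which asks for a larger fold change at a lower count, left 1397 genes called higher (6.84%) and 989 called lower (4.84%). After GC adjustment the calls were 697 higher and 1083 lower. The shares of 28.7% and 27.7% are the background against which each group of genes is read in Gne KO cells. In WT cells 16.6% of all genes passed as higher and 15.3% as lower. By the interaction test the change of Gne KO cells was more positive than that of WT cells in 19.7% and more negative in 22.2%. Counts of WT cells and of that test are read against these shares. With library size alone in place of TMM the median over all genes was 0.34, 557 genes were called lower, and the medians of 13 of the 42 gene lists changed sign, all of them lists in which genes moved both ways.

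The strongest changes were sought among genes with a mean of at least 100 normalised read counts over the 6 Gne KO libraries. Gene models without a name (Gm and Rik symbols) and pseudogenes were left out. The differentiated libraries also had to lie all above or all below the proliferative ones. Of these genes 886 were called higher and 845 lower, and 11 of the 12 strongest of each direction are described. Ptgds (ENSMUSG00000015090, chr2:25466709-25470046), a prostaglandin D2 synthase gene, was read at 7.90, 23.1 and 12.9 in proliferative and 1216, 838 and 1074 in differentiated libraries (log2 fold change 6.25, SE 0.39, adjusted p = 3.4e-09). Every differentiated library lay far above every proliferative library, and replicate 2 was the highest of the proliferative group. Pi15, a secreted protease inhibitor, rose by 5.69 on the log2 scale (GC-adjusted 3.92), the matrix protease gene Adamts15 by 5.14, the guidance cue Sema3c by 5.09, the matrix protein gene Fndc1 by 5.06 and the kinesin gene Kif26a by 4.87. Ch25h, which makes 25-hydroxycholesterol, rose by 4.95, and Dcn, Igfbp4, Il33 and Cp are described with their groups.

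Several of the strongest falls left few reads in lean serum. Fmod (ENSMUSG00000041559, chr1:134037254-134048277), a small proteoglycan that binds collagen, was read at 205, 282 and 249 in proliferative and 4.35, 0 and 1.86 in differentiated libraries (log2 fold change −7.00, SE 1.09, adjusted p = 4.5e-05). Ptx3, a soluble pattern recognition protein, went from 310.2, 273 and 325 to 1.74, 4.32 and 3.71, and Ctgf, a matricellular growth factor gene, from 598, 646 and 685 to 12.2, 2.16 and 15.8 (log2 fold change −6.23, with 23% of its exonic length under a gene on the opposite strand). No differentiated library came near a proliferative one in these 3 genes, and genes with overlap could not be picked. Cd74, the invariant chain of MHC class II, fell by 4.96, the G-protein regulator Rgs4 (−4.86), the glycosyltransferase gene Galnt18 (−4.56), the large matrix protein gene Svep1 (−4.51) and Pcolce2, an enhancer of collagen maturation, (−4.50). Lmod1, Id3 and Fgf7 are described with their groups.

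**Figure D2:**
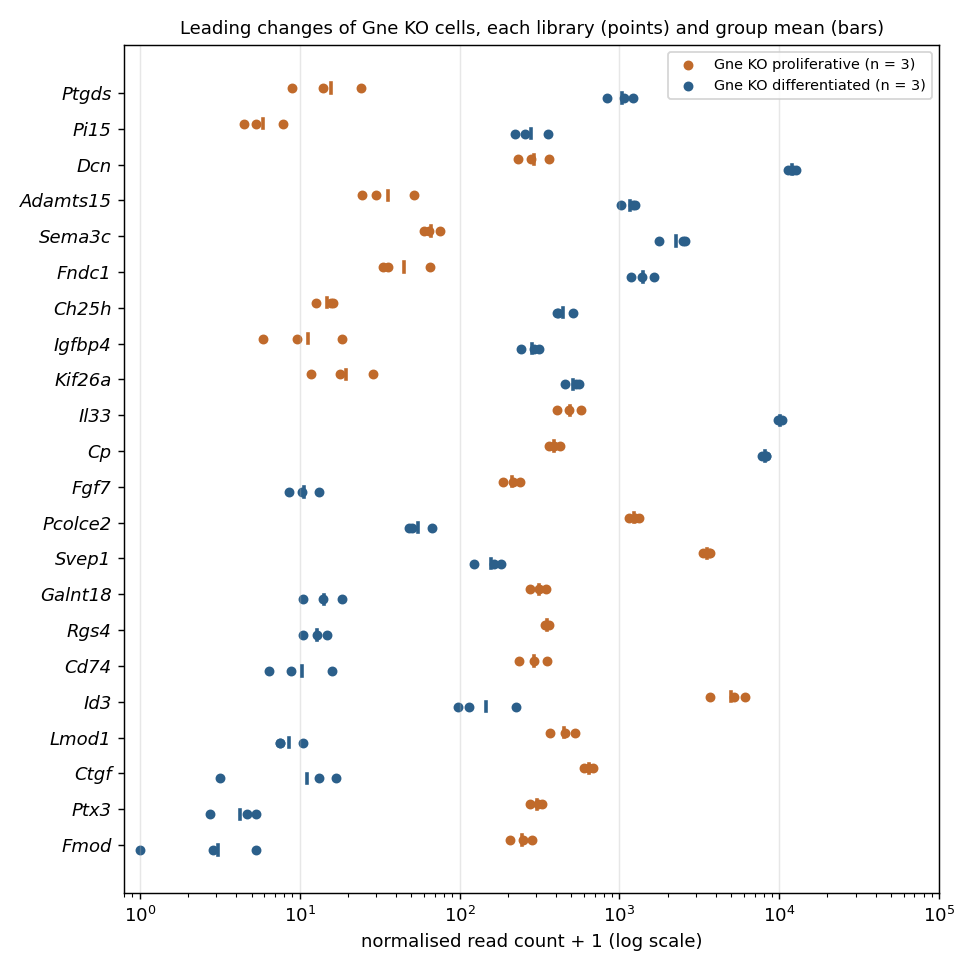
Normalised read count plus 1 on a log axis (x) for 11 of the 12 strongest rises and 11 of the 12 strongest falls of Gne KO cells (y), with 1 point per library, 3 libraries per group, and a bar at the group mean. Only named genes whose differentiated and proliferative libraries did not overlap could be picked. The points of the 2 states therefore lie apart in every gene by choice. The genes run from Ptgds at the top, with 1216, 838 and 1074 counts in differentiated libraries, to Fmod at the bottom with 4.35, 0 and 1.86.

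**Figure D3:**
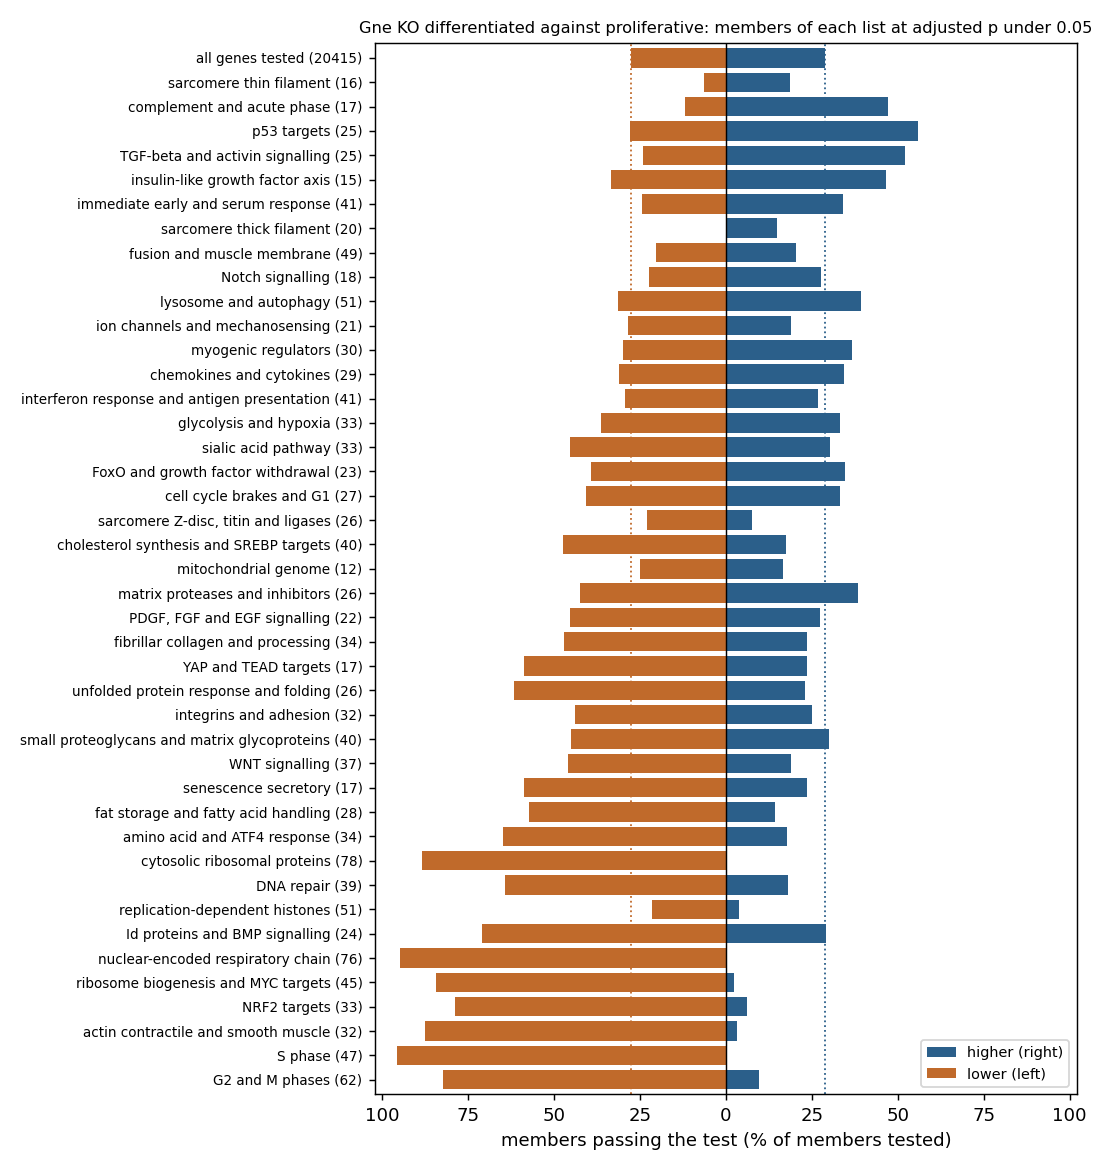
Share of the tested members of 42 gene lists (y, number tested in brackets) that passed the test as higher (right) or lower (left) in Gne KO cells (x, %), ordered by the median log2 fold change of the list, with all genes at the top and as dotted lines at 28.7% and 27.7%. Lists of DNA replication, mitosis, respiratory chain and contractile actin genes are almost wholly to the left, and the longest bar to the right is that of the p53 targets, with 14 of 25.

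Genes of the cell cycle fell as groups. Of the 47 genes of S phase tested, 45 fell and 0 rose, with a median of −1.56, and of the 62 genes of G2 and M phases 51 fell and 6 rose, with a median of −1.63. Mcm5, a subunit of the replicative helicase, was read at 5965, 7787 and 8789 in proliferative and 1318, 1283 and 1329.8 in differentiated libraries (log2 fold change −2.50, SE 0.11, adjusted p = 1.2e-10). Rrm2, which supplies deoxynucleotides, went from 5485, 4575 and 5549 to 902, 853 and 1007 (log2 fold change −2.50, SE 0.10, adjusted p = 7.1e-11), and Ccne1, the cyclin of the G1 to S step, from 987, 1269.8 and 1255 to 209, 230.2 and 226. The libraries within a state differed far less than the states in all 3 genes. Pcna, the replication clamp, fell by 0.94. Mki67, the proliferation antigen, was read at 16242, 13756 and 12919 and still at 10089, 11008 and 10542 in lean serum (log2 fold change −0.43, SE 0.10, adjusted p = 0.0013, GC-adjusted −0.86). In WT cells 46 of the 47 S-phase genes fell and 0 rose, with a median of −0.93. The change of Gne KO cells was more negative than that of WT cells in 35 and more positive in 3.

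Among mitotic genes Plk1, the kinase of mitotic entry, was read at 3493, 4657 and 4965 and 799, 853 and 843 (log2 fold change −2.38, SE 0.12, adjusted p = 3.1e-10). Ccnb2, a mitotic cyclin, went from 2578, 3135 and 2915 to 585, 617 and 618 (log2 fold change −2.24, SE 0.09, adjusted p = 7.2e-11), Cdk1, its kinase partner, from 4884, 4257 and 4951 to 1313, 1399 and 1409.7, and Cdc20, which starts anaphase, from 6079, 4925 and 7978 to 1372, 1469 and 1430.1. In each of these genes the lowest proliferative library exceeded the highest differentiated library. The 6 members that passed as higher were Cenpe, Cenpf, Kif20b, Smc2, Smc4 and Sgo2a, which serve kinetochores, the cleavage furrow and chromosome condensation, and the libraries of the 2 states overlapped in Smc4 and Sgo2a. After GC adjustment 59 of the 62 fell and 0 rose, and Cenpf, which had risen by 0.97, had a change of 0.07 and no longer passed. In WT cells 52 fell and 0 rose with a median of −0.65. The change of Gne KO cells was more negative than that of WT cells in 43 members and more positive in 8 (interaction test).

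Promoters of many mitotic genes hold 2 sequence elements known from the cell cycle, and 4 promoters with both are printed to show where the elements lie in genes that fell. The windows run from 170 bases before to 30 bases from the start of transcription in RefSeq (GRCm38.p6), 5′ to 3′ on the strand of the gene, and capitals mark the CHR element (TTTGAA or its complement TTCAAA, bound by the MuvB complex) and the CCAAT box (CCAAT or ATTGG, bound by NF-Y), which do not overlap in these windows.
Ccnb2 (chr9:70421525-70421724, minus strand): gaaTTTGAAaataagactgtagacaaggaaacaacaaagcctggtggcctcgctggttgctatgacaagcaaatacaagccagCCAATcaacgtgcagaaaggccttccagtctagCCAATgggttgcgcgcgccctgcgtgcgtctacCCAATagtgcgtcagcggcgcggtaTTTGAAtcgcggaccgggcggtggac
Cdk1 (chr10:69352883-69353082, minus strand): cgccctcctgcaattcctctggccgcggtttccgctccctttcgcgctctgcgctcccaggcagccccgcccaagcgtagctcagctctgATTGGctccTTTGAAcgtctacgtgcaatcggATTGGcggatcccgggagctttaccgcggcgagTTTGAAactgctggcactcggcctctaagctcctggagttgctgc
Cdc20 (chr4:118437314-118437513, minus strand): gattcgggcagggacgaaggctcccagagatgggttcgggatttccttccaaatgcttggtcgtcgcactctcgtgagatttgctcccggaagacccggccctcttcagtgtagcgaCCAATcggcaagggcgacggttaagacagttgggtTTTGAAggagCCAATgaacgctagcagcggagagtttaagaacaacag
Ube2c (chr2:164769759-164769958, plus strand): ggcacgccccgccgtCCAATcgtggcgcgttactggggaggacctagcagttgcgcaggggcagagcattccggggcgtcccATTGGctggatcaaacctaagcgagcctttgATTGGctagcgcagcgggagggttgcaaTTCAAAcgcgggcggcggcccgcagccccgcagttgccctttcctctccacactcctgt

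A CHR element and a CCAAT box stood together in 23 of the 50 promoters of G2 and M genes found in the RefSeq table (46.0%), in 2 of 38 promoters of S-phase genes (5.26%) and in 333 of the 12380 promoters of all tested genes found there (2.69%). Among all 27025 promoters there, 11.9% held a CHR element, 29.7% a CCAAT box and 3.60% both. Of the 40 promoters whose G2 or M gene fell, 20 held both. A match of letters is a description of the promoter and no record of binding. Ube2c, the ubiquitin-conjugating enzyme of mitotic exit, was read at 2721, 3136 and 3136 and 727, 769 and 761 (log2 fold change −1.99, SE 0.08, adjusted p = 7.1e-11).

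Regulators of cell-cycle exit moved both ways. Cdkn1a, the inhibitor p21, was read at 2077, 3085 and 3018 in proliferative and 5103, 5035 and 5096 in differentiated libraries (log2 fold change 0.92, SE 0.16, adjusted p = 1.1e-04) and rose, as did Rbl2, the pocket protein p130, by 0.46 (21% of its exons under another gene). Cdkn1c, the inhibitor p57, fell from 34.6, 87.9 and 44.1 to 8.69, 7.57 and 3.71 (log2 fold change −2.91, SE 0.83, adjusted p = 0.0068, 31% of its exons under a gene on the other strand), and Cdkn2c, the inhibitor p18, fell by 1.31. Ccnd1, the cyclin that responds to growth factors, fell by 0.54 (GC-adjusted −0.29, 23% of its exons under another gene). Of 27 genes of this list 9 rose and 11 fell, and 6 rose and 14 fell after GC adjustment. Rb1 rose by 0.91 but had a GC-adjusted change of 0.04, adjusted p = 0.88.

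The machinery of growth fell with the cell cycle. Of 45 genes of ribosome biogenesis and MYC targets 38 fell and 1 rose (median −0.95), of 78 cytosolic ribosomal protein genes 69 fell and 0 rose (median −0.61), and of 76 nuclear genes of the respiratory chain 72 fell and 0 rose (median −0.91). Fbl, the methylase of ribosomal RNA, was read at 2472, 2934 and 3283 and 1050.3, 1165 and 1099.5 (log2 fold change −1.38, SE 0.10, adjusted p = 8.5e-09), and Rpsa, a protein of the small subunit, at 33516, 47806 and 51432 and 18352, 19149 and 17135 (log2 fold change −1.26, SE 0.12, adjusted p = 2.3e-07). Atp5b, a subunit of ATP synthase, went from 28953, 30202 and 39604 to 15349, 15497 and 15021 (log2 fold change −1.09, SE 0.10, adjusted p = 1.4e-07). The changes were moderate, about a factor of 2.61 in Fbl and 2.13 in Atp5b, and all 3 differentiated libraries lay below all proliferative ones.

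In WT cells the same switch lowered 40 of the 45 genes of ribosome biogenesis and MYC targets and raised 0, with a median of −0.56. The interaction test passed in 25 of them as more negative in Gne KO cells and in 6 as more positive. Of the ribosomal protein genes 17 and of the respiratory chain genes 17 fell in WT cells, with medians of −0.18 and −0.19. In these lists the interaction test passed in 44 and 58 genes as more negative in Gne KO cells. The GC-adjusted medians of Gne KO cells were −0.56 for ribosomal protein genes and −0.84 for respiratory chain genes. Myc, which drives ribosome genes, fell by 0.52 in Gne KO cells (adjusted p = 0.0047, GC-adjusted −0.23, adjusted p = 0.15, and −0.35, with the call lost, without replicate 2 of the proliferative group) and rose by 0.49 in WT cells. Of 12 protein and RNA genes of the mitochondrial genome tested 2 rose and 3 fell, and 11 fell after GC adjustment. Between 0 and 4 fell when 1 Gne KO library was left out, with the lowest count without replicate 2 of either group. Mitochondrial reads made up 1.20%, 1.85% and 0.930% of the proliferative and 1.56% to 1.85% of the differentiated libraries.

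**Figure D4:**
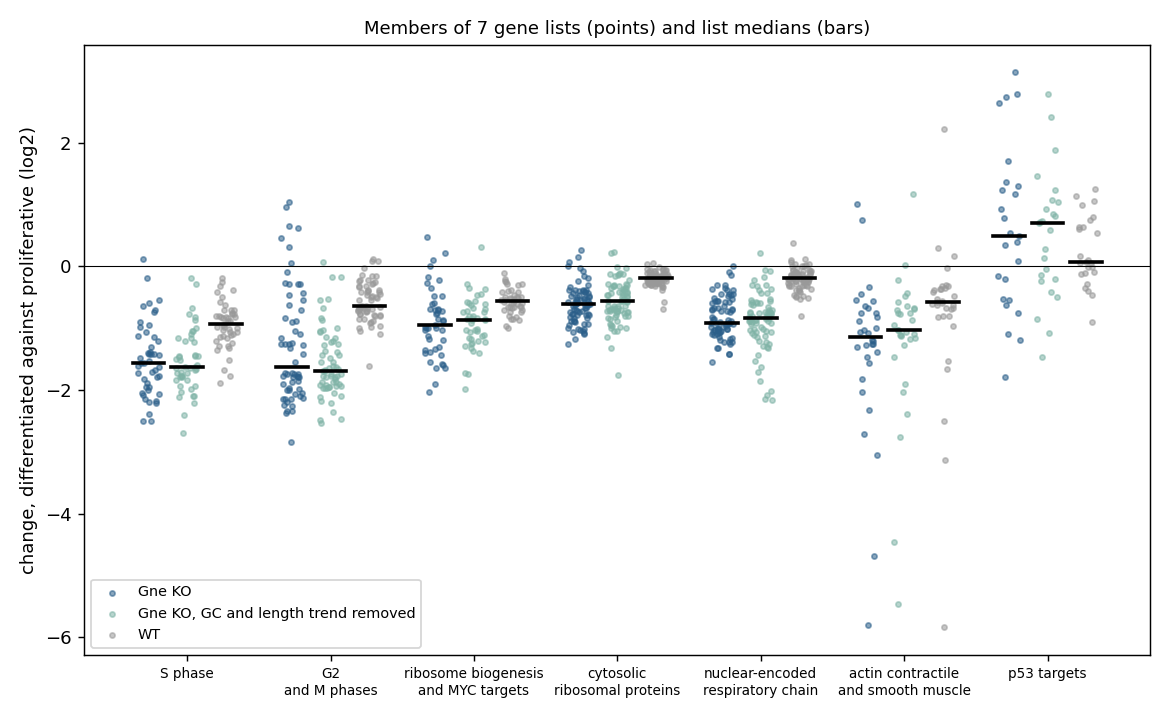
Log2 change from the proliferative to the differentiated state (y) of each member (point) of 7 gene lists (x), with bars at the list medians, for Gne KO cells, Gne KO cells after removal of the GC and length trend, and WT cells. Members of G2 and M phases have medians of −1.63, −1.69 and −0.65 in that order, and the p53 targets are the only list of the 7 with medians above 0 throughout, at 0.49, 0.70 and 0.07.

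Id proteins and targets of bone morphogenetic protein (BMP) signals fell steeply. Id1, Id2 and Id3 are helix-loop-helix proteins without a DNA-binding part and are direct targets of BMP through SMAD1 and SMAD5. Id3 was read at 5234, 3664 and 6130.3 in proliferative and 225, 97.3 and 114 in differentiated libraries (log2 fold change −5.14, SE 0.30, adjusted p = 1.8e-09), Id1 at 1595, 1121 and 1727 and 108, 97.3 and 108 (log2 fold change −3.80, SE 0.21, adjusted p = 8.4e-10) and Id2 at 2340.1, 1839 and 2047 and 1141, 794 and 878 (log2 fold change −1.15, SE 0.12, adjusted p = 9.0e-07). In proliferative cells replicate 2 was the lowest of the 3 in each of them, still above every differentiated library. Smad6, the inhibitory SMAD, fell from 562, 435 and 567 to 64.3, 45.4 and 60.4 (log2 fold change −3.19, SE 0.19, adjusted p = 2.1e-09) and Smad9 (−3.76). The secreted BMP antagonist Grem1 fell by 0.61 (GC-adjusted −0.96), and the ligand Bmp4 fell from 94.8, 123 and 85.0 to 64.3, 32.4 and 52.0. Of 24 genes 17 fell and 7 rose (16 and 3 after GC adjustment), and the receptor gene Bmpr1a, which rose by 0.99, had a GC-adjusted change of 0.04, adjusted p = 0.64. Id1 and Id3 did not pass the test in WT cells (log2 fold changes −0.28 and −0.09), and the difference between the cell types passed in each.

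Regulators of myogenesis moved both ways, and few sarcomere genes passed the test. Myod1, the master regulator of myogenesis, was read at 1695, 2372 and 2321 in proliferative and 246, 189 and 215 in differentiated libraries (log2 fold change −3.27, SE 0.30, adjusted p = 1.6e-07), so that it fell with no overlap. Myog, which marks the start of differentiation, was read at 220.3, 519 and 366 and 186, 121 and 169.9 (log2 fold change −1.11, SE 0.55, adjusted p = 0.10), and it passed the test as lower when only the 6 Gne KO libraries were fitted (adjusted p = 0.0058). In WT cells Myog was read at 8899, 2647 and 2459 in proliferative libraries, where replicate 1 stood far above the others, and at 4429, 4587 and 3705 in differentiated ones. Myf5 was read at 1241, 939 and 1102 and 1069, 1019 and 986, with overlapping groups (−0.09, adjusted p = 0.51, GC-adjusted −0.90, adjusted p = 2.8e-06). Mef2a, a partner of the myogenic factors, rose from 2295, 2279 and 1855 to 9075, 8445 and 9361 (log2 fold change 2.07, SE 0.14, adjusted p = 6.9e-09, GC-adjusted 1.25), whereas Mef2c, the member tied to sarcomere genes, was read at 37.5, 28.9 and 23.7 and 9.56, 10.8 and 13.9 (adjusted p = 0.063, GC-adjusted −2.40) and rose in WT cells by 1.81. Tead4, a TEAD factor that acts in myoblast differentiation, fell from 152, 176 and 207 to 31.3, 19.5 and 25.1 and rose in WT cells by 0.69.

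Sarcomere genes passed the test in small numbers. Of 20 thick filament genes 3 rose, and of 16 thin filament genes 3 rose and 1 fell. Of 26 Z-disc, titin and ubiquitin ligase genes 2 rose and 6 fell. In WT cells 14, 12 and 17 members of these lists rose, against 16.6% of all genes there. The fit over 4 groups shares 1 spread per gene with the WT libraries, and with the 6 Gne KO libraries alone 5 thick filament genes rose and 2 fell, and 7 thin filament genes rose and 3 fell. Ttn, the giant spring of the sarcomere, was read at 173, 343 and 95.8 and 1227, 689 and 1066 (log2 fold change 2.46, SE 0.44, adjusted p = 1.6e-04), and Acta1, skeletal actin, at 117, 288 and 165 and 583, 310.2 and 438 (log2 fold change 1.32, SE 0.54, adjusted p = 0.048, with changes from 1.01 to 1.71 when 1 Gne KO library was left out and the call kept only without replicate 2 of the differentiated group). Myom2, of the M band, rose from 99.8, 168 and 119 to 411, 225 and 347. Replicate 2 was the highest proliferative and the lowest differentiated library in all 3, and the groups did not overlap. Myh3, the embryonic myosin, was read at 51.4, 139 and 47.3 and 123, 54.0 and 113, with overlap, while WT cells reached 9914 ± 958 (SD, n = 3) in the differentiated state.

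A few genes of the muscle membrane and of sarcomere assembly rose strongly. Chrnd, a subunit of the acetylcholine receptor, was read at 94.8, 159.6 and 155 and 1144, 1207 and 1006 (log2 fold change 3.08, SE 0.21, adjusted p = 8.3e-09), Itga7, the laminin receptor of muscle fibres, at 2719, 3139.7 and 3495 and 15545, 14657 and 14631 (log2 fold change 2.27, SE 0.09, adjusted p = 7.5e-11), and Klhl40, a stabiliser of thin filaments, at 16.8, 33.5 and 59.2 and 467, 455 and 430.0 (log2 fold change 3.80, SE 0.39, adjusted p = 6.0e-07, 22% of its exons under a gene on the other strand). Other receptor subunits did not pass the test. Chrna1 was read at 449, 801 and 609 and 630.4, 542 and 566 and Chrng at 56.3, 125 and 78.6 and 122, 76.7 and 93.8, with overlapping groups. Mymk, which fuses myoblasts, was read at 77.0, 128 and 126 and 174, 94.0 and 142 (0.34, adjusted p = 0.66), against 1807 ± 1374 and 4291 ± 632 (SD, n = 3) in WT cells. Of 49 genes of fusion and muscle membrane 10 rose and 10 fell, and 6 rose without replicate 1 of the proliferative group. Fewer cells of a type and less RNA per cell cannot be told apart in these bulk libraries.

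Genes of the sialic acid pathway, in which Gne acts, were mixed. Nans, which makes the sialic acid phosphate, fell from 1245, 1657 and 1649.6 to 587, 594 and 568 (log2 fold change −1.36, SE 0.10, adjusted p = 2.4e-08, 30% of its exons under a gene on the other strand). Cmas, which activates sialic acid, was read at 776, 953 and 719.9 and 710.3, 783 and 724 with overlapping groups. Among transferases St3gal5, which makes the ganglioside GM3, rose from 1212, 1425 and 1254 to 1764, 1754 and 1881 (log2 fold change 0.48, SE 0.12, adjusted p = 0.0038, GC-adjusted 0.76), and St6gal1 was read at 432, 523 and 540.2 and 463, 463 and 447 (−0.11, adjusted p = 0.45). Of 33 genes 10 rose and 15 fell, with a median of −0.13 (12 and 7, with a median of 0.13, with library size alone).

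Contractile and cytoskeletal actin genes, many of them targets of SRF and its actin-sensing cofactors, fell as a group. Of 32 genes 28 fell and 1 rose (median −1.14), and Lpp, the gene that rose by 0.75, had a GC-adjusted change of −0.23, adjusted p = 0.019. Acta2, smooth muscle actin, was read at 63356, 98184 and 91303 and 20871, 19350.2 and 20188 (log2 fold change −2.04, SE 0.13, adjusted p = 5.0e-09), Actg2 at 3723, 4093 and 5490.0 and 509.5, 491 and 574 (log2 fold change −3.06, SE 0.13, adjusted p = 9.8e-11) and Myl9, a regulatory light chain, at 5365, 7303 and 7241 and 1045, 873 and 1088 (log2 fold change −2.71, SE 0.13, adjusted p = 2.8e-10). Replicate 1 was the lowest proliferative library in these 3 genes, and the groups did not overlap. Lmod1, which nucleates actin filaments, had the steepest fall of the group, from 364, 526 and 458 to 9.56, 6.49 and 6.50 (log2 fold change −5.80, SE 0.35, adjusted p = 2.2e-09). The non-muscle actins Actb and Actg1 fell (log2 fold changes −1.30 and −1.03), as did Cnn2, a calponin (−1.38), and Srf itself fell from 2605, 3328 and 3422 to 1478, 1319 and 1295 (log2 fold change −1.18, SE 0.12, adjusted p = 3.3e-07). In WT cells 27 of the 32 genes fell and 0 rose, with a median of −0.58. The change of Gne KO cells was more negative than that of WT cells in 17 and more positive in 1.

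A CArG box, the element bound by SRF (spelled by its name alone here, whose pattern is the same on both strands), lay within the window of 4 of the 28 promoters of this list found in RefSeq (14.3%), which are those of Fhl2, Myl9, Cnn2 and Actg1, and of 3 of 28 promoters of immediate early genes (10.7%), against 110 of the 12380 promoters of tested genes (0.889%) and 1.08% of all promoters. Of the genes with such a promoter, 3 from the actin list and Srf are shown, with the CArG box in capitals.
Myl9 (chr2:156775294-156775493, plus strand): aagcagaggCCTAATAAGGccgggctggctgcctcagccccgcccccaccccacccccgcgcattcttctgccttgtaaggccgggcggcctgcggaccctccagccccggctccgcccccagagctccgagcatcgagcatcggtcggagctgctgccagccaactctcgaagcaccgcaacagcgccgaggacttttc
Cnn2 (chr10:79988430-79988629, plus strand): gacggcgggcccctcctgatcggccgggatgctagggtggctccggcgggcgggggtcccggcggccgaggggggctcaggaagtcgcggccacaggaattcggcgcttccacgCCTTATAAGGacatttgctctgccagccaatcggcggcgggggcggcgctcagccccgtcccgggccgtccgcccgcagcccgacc
Actg1 (chr11:120348466-120348665, minus strand): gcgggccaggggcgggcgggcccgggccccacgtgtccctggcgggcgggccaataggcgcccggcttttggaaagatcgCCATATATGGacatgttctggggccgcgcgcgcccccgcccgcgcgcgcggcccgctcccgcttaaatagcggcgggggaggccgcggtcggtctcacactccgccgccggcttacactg
Srf (chr17:46556133-46556332, minus strand): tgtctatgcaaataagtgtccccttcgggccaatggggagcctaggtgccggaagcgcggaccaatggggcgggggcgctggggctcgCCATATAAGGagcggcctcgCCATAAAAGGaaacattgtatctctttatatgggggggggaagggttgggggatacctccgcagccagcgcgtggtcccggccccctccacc
The other promoters of the list held no such letters in this window, which says nothing of elements farther away.

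Immediate early genes had no common direction. Fos was read at 8.89, 18.5 and 29.1 and 299, 61.6 and 56.6 (log2 fold change 2.62, SE 0.81, adjusted p = 0.011) and Egr1, a zinc finger factor, at 2106, 3053 and 3258 and 10194, 4337 and 4639 (log2 fold change 1.10, SE 0.25, adjusted p = 0.0012). Replicate 1 of the differentiated group stood above the other 2 in both, and without it the changes were 1.79 and 0.71, while Fos did not pass without replicate 1 of the proliferative group (2.15). Fosb rose by 1.98, whereas Jun fell by 0.43 (GC-adjusted −0.08, adjusted p = 0.49, and −0.29 without replicate 2 of the proliferative group). Of 41 genes 14 rose and 10 fell (22 and 7 with library size alone). Among the 17 targets of YAP and TEAD 4 rose and 10 fell, and while Ctgf was nearly lost, Cyr61 was read at 7740.4, 9935 and 10700.2 and 10932, 6412 and 8388 and Ankrd1 at 4682, 4339 and 4350.5 and 4439, 2894 and 3541, with overlapping groups.

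The insulin-like growth factor (IGF) axis changed at its binding proteins and receptors. Igfbp5, a secreted binder of IGFs, was read at 2081, 4038 and 2704 and 17025, 13553 and 15886 (log2 fold change 2.45, SE 0.17, adjusted p = 9.2e-09), and Igfbp4 at 4.94, 17.3 and 8.61 and 292, 241 and 311 (log2 fold change 4.90, SE 0.61, adjusted p = 4.1e-06). Igfbp7 fell from 6562, 8363 and 7628 to 2055, 1995 and 1932 (log2 fold change −1.91, SE 0.10, adjusted p = 4.8e-10), Igfbp3 (−2.11) and Igfbp6 (−1.11). Within the family some members thus rose without overlap and others fell without overlap. The insulin receptor gene Insr rose from 1264, 964 and 1016 to 3768, 3526 and 3494 (log2 fold change 1.74, SE 0.09, adjusted p = 6.1e-10) and the adaptor Irs1 by 1.19 (31% of its exons under a gene on the other strand), while the ligand gene Igf2 was near zero, with 2.96, 1.16 and 2.15 and 0.869, 0 and 1.86. H19, the imprinted non-coding RNA next to Igf2, fell from 12254, 30415 and 16975 to 1858, 1178 and 1626 (log2 fold change −3.59, SE 0.31, adjusted p = 1.1e-07), and the proliferative libraries spread over a factor of more than 2. Of 15 genes of this axis 7 rose and 5 fell.

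Genes known to answer to FoxO factors and to the loss of growth factors gave no single direction. Sesn3, a stress sensor that restrains mTORC1, rose from 1486, 1212 and 1093 to 8839, 8955 and 8747 (log2 fold change 2.82, SE 0.12, adjusted p = 7.5e-11) and Txnip, a brake on glucose uptake, from 1595, 2160.2 and 1822 to 4952, 4950.5 and 5098 (log2 fold change 1.44, SE 0.10, adjusted p = 8.5e-09). Pdk4, which diverts pyruvate from the mitochondria, fell from 2650.3, 2351 and 2256 to 533, 482 and 514 (log2 fold change −2.24, SE 0.13, adjusted p = 1.5e-09), Foxo1 (−1.15) and Cited2 (−1.54). Trim63, a ubiquitin ligase of muscle wasting, was read at 23.7, 54.4 and 45.2 and 39.1, 34.6 and 50.1 (0.10, adjusted p = 0.85) and Fbxo32, another such ligase, at 5812, 5801 and 4660.4 and 6160.1, 6533 and 6187 (0.22, adjusted p = 0.057). Of 23 genes 8 rose and 9 fell.

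Among genes of receptor tyrosine kinases, ligands and receptors moved both ways. Fgf2 rose from 98.8, 70.5 and 66.7 to 1008, 907 and 941 (log2 fold change 3.60, SE 0.19, adjusted p = 5.3e-10), whereas Fgf7 fell from 237, 214 and 186 to 12.2, 7.57 and 9.29 (log2 fold change −4.39, SE 0.29, adjusted p = 6.5e-09). Fgfr1 rose by 0.81 and Fgfr2 fell from 728, 643 and 592 to 94.8, 98.4 and 114 (log2 fold change −2.67, SE 0.15, adjusted p = 8.1e-10). Pdgfb and its receptor Pdgfrb fell (log2 fold changes −2.46 and −1.55). The inhibitors Spry1, Spry2, Spry4 and Spred3, which are induced by FGF signals in many tissues, rose by 2.50, 1.10, 1.15 and 1.87 (24% of the exons of Spry1 under another gene), as did the ERK phosphatase Dusp6, by 0.75. Hgf, which activates muscle stem cells, rose from 141, 93.7 and 90.4 to 694, 746 and 695 (log2 fold change 2.72, SE 0.15, adjusted p = 9.6e-10, GC-adjusted 1.72), and the vessel growth factors Vegfa and Angpt1 rose by 1.17 and 1.90 (GC-adjusted 0.78). Of 22 genes of PDGF, FGF and EGF signalling 6 rose and 10 fell, and the receptor gene Egfr, which rose by 0.98, had a GC-adjusted change of 0.27, adjusted p = 0.066.

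In the transforming growth factor beta (TGF-beta) pathway 13 of 25 genes rose and 6 fell, with a median of 0.39. The receptor Tgfbr2 rose from 7471, 8515 and 8222 to 16628, 15092 and 16584 and the activin subunit Inhbb from 2335, 3150.1 and 2703 to 6207, 5597 and 5888, while the ligand Tgfb1 fell from 2826, 3954 and 4204 to 1558, 1534 and 1414 (log2 fold change −1.26, SE 0.12, adjusted p = 2.2e-07). In the Notch pathway the receptor Notch3 rose from 899.9, 1069 and 1169.7 to 3777, 3690.2 and 3481 (log2 fold change 1.81, SE 0.17, adjusted p = 1.9e-07) and the ligand Dll1 by 1.80 (21% of its exons under a gene on the other strand), whereas Lfng, which modifies Notch, fell by 3.35 and the target Hey1 (−3.39), from 32.6, 45.1 and 39.8 to 5.22, 2.16 and 2.79. In the WNT pathway the feedback genes Axin2 and Apcdd1 rose by 1.33 and 2.02, and the ligand Wnt4, the agonist Rspo2 and the nuclear factor Lef1 fell (log2 fold changes −4.32, −2.42 and −1.11). Of 37 WNT genes 7 rose and 17 fell.

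Genes of the extracellular matrix moved both ways. Dcn, a small proteoglycan that binds collagen and growth factors, was read at 230.2, 363 and 279.8 and 12156, 11328 and 12645 (log2 fold change 5.40, SE 0.14, adjusted p = 1.3e-12), and Dpt, a matrix protein of the same surroundings, at 68.2, 118 and 78.6 and 1674, 1446 and 1607 (log2 fold change 4.20, SE 0.20, adjusted p = 2.0e-10). Fn1, fibronectin, rose from 192979, 280143 and 240709 to 461652, 413259 and 478137 (log2 fold change 0.94, SE 0.15, adjusted p = 7.8e-05). Among collagens Col3a1 rose from 100690.0, 113124 and 118516 to 221868, 217982 and 212052, Col5a3 by 2.43 and Col18a1 by 1.20, Col12a1 fell from 42832, 50614 and 45916 to 10264, 9519 and 10929 (log2 fold change −2.18, SE 0.09, adjusted p = 9.6e-11), and Col1a1 was read at 26572, 28839 and 33772 and 31358, 30529 and 30066, with overlap. The basement membrane chain Lama2 rose by 1.38 and tenascin Tnc by 0.85. Periostin Postn fell by 0.76 (GC-adjusted −2.39), and thrombospondin Thbs1 and fibulin Fbln1 fell (log2 fold changes −2.18 and −2.08). Of 34 collagen and processing genes 8 rose and 16 fell.

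Among enzymes that build and cut the matrix, Lox, which crosslinks collagen, fell from 38201, 32213 and 34378 to 11887, 13316 and 12833 (log2 fold change −1.46, SE 0.09, adjusted p = 1.7e-09) and P4ha3, a prolyl hydroxylase, (−2.45), whereas Plod2, a lysyl hydroxylase, rose by 1.72. The aggrecanases Adamts4 and Adamts5 rose by 1.99 and 2.80, and their inhibitor Timp3 fell by 1.55, from 4789.9, 4747 and 4625 to 1708, 1419 and 1736 (21% of its exons under another gene). Timp2 fell from 49742, 63330.0 and 62678 to 24424, 22499 and 24550.3 (log2 fold change −1.29, SE 0.09, adjusted p = 6.4e-09) and rose in WT cells by 0.32. Of 26 genes of this list 10 rose and 11 fell (11 and 7 with library size alone).

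Secreted immune genes were also split. Il33, an alarmin, was read at 405, 577 and 479.9 and 10396, 10138 and 9805 (log2 fold change 4.39, SE 0.18, adjusted p = 6.9e-11) and Cp, the copper oxidase ceruloplasmin, at 362, 427 and 386 and 8259.9, 7799.7 and 8255 (log2 fold change 4.38, SE 0.29, adjusted p = 5.1e-09). Complement and acute phase genes rose more often than they fell, with 8 of 17 higher and 2 lower and a median of 0.67 (GC-adjusted 0.25). In WT cells 9 rose and 2 fell. In Gne KO cells 6 rose and 2 fell with the 6 Gne KO libraries alone or without replicate 1 of the proliferative group. C1s1, a protease of the classical pathway, rose from 3499, 4625 and 3498 to 10713, 8666 and 10806 (log2 fold change 1.38, SE 0.14, adjusted p = 6.0e-07), and C3, the component on which the pathways converge, by 0.95, from 532, 1128 and 625 to 1484, 1192 and 1491, where replicate 2 of the proliferative group came near the differentiated libraries. Among chemokines Cxcl10 fell from 418, 469.5 and 499 to 58.3, 51.9 and 95.6 (log2 fold change −2.78, SE 0.20, adjusted p = 1.6e-08). Of 41 interferon and antigen presentation genes 11 rose and 12 fell, against 28 and 1 in WT cells. In Gne KO cells 17 rose and 11 fell after GC adjustment, with a median of 0.13 in place of −0.11, and 17 rose and 9 fell with library size alone. Irf7, a factor that amplifies interferon, fell by 0.70 in Gne KO cells (GC-adjusted −0.35, adjusted p = 0.10) and rose by 1.69 in WT cells.

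Genes of the antioxidant factor NRF2 and of the amino acid factor ATF4 fell. Of 33 NRF2 targets 26 fell and 2 rose (median −1.02), and of 34 genes of the ATF4 response 22 fell and 6 rose (median −0.58). Nqo1, a quinone reductase, was read at 851, 604 and 908 and 149.5, 152 and 163 (log2 fold change −2.32, SE 0.15, adjusted p = 5.5e-09) and Hmox1, which breaks down haem, at 942, 1333 and 1258 and 465, 428 and 491 (log2 fold change −1.33, SE 0.17, adjusted p = 5.1e-06). Phgdh and Psat1, the first enzymes of serine synthesis, fell (log2 fold changes −1.96 and −1.77), and Asns, which makes asparagine, fell by 1.43. The stress genes Ddit3, Trib3 and Chac1 did not pass the test, with log2 fold changes of 0.13, 0.06 and −0.23 and adjusted p-values of 0.41, 0.88 and 0.50. Slc7a11, the cystine importer that both factors can induce, went the other way and rose from 145, 109 and 101 to 601, 582 and 583 (log2 fold change 2.32, SE 0.19, adjusted p = 4.4e-08, GC-adjusted 1.14), although it fell in WT cells (log2 fold change −0.50). In WT cells 21 of the 33 NRF2 targets fell and 2 rose (median −0.53). Of the 34 ATF4 genes 21 fell and 6 rose there (median −0.45). The change of Gne KO cells was more negative in 16 NRF2 and 13 ATF4 genes and more positive in 3 and 6. These shares were 22.2% and 19.7% over all genes tested.

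Targets of p53 rose more often than they fell, with 14 of 25 higher and 7 lower and a median of 0.49. Gadd45a, a growth arrest gene, was read at 667, 926 and 594 and 4709, 4154 and 4478 (log2 fold change 2.64, SE 0.13, adjusted p = 2.8e-10), Pmaip1, the death gene Noxa, at 101, 70.5 and 65.6 and 689, 626 and 762 (log2 fold change 3.14, SE 0.19, adjusted p = 2.2e-09) and Eda2r, a receptor of the tumour necrosis factor family, at 305, 202 and 237 and 1662, 1734 and 1737 (log2 fold change 2.79, SE 0.12, adjusted p = 7.9e-11). No library of these 3 genes overlapped between the states, and Pmaip1 and Eda2r were chosen after their values were seen. Trp53inp1 rose by 2.73 (GC-adjusted 1.47) and Mdm2, the ligase that removes p53, by 1.23, while the p53 gene Trp53 fell from 6456, 8117 and 9065 to 3510.0, 3512 and 3272 (log2 fold change −1.19, SE 0.10, adjusted p = 6.4e-08). Of 39 DNA repair genes 25 fell and 7 rose (33 and 4 after GC adjustment), with a median of −0.66. In WT cells 29 fell and 2 rose, with a median of −0.64. The change of Gne KO cells was more negative than that of WT cells in 12 of these genes and more positive in 9. Over all genes tested 22.2% were more negative and 19.7% more positive. Of 51 replication-dependent histone genes 11 fell and 2 rose, with 18 lower without replicate 1 of the proliferative group, 6 without its replicate 2 or its replicate 3, and 7 without replicate 2 of the differentiated group. Most of these messages lack a poly(A) tail, and the libraries were made with an mRNA kit.

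Lipid and sugar genes showed a few strong changes within mixed lists. Abca1, which exports cholesterol, was read at 20.7, 41.6 and 18.3 and 376, 460.5 and 464 (log2 fold change 4.09, SE 0.34, adjusted p = 7.1e-08) and Fabp5, a fatty acid carrier, at 1459, 1681 and 1889.5 and 196, 169 and 182 (log2 fold change −3.19, SE 0.12, adjusted p = 6.9e-11). The adipogenic factors Pparg and Cebpa fell, Pparg from 43.5, 41.6 and 47.3 to 0.869, 1.08 and 4.64 and Cebpa with a log2 fold change of −1.56. Of 28 genes of fat storage and handling 16 fell and 4 rose (14 and 9 after GC adjustment, 14 and 9 with library size alone). Of 40 genes of cholesterol synthesis 19 fell and 7 rose (10 and 12 with library size alone), and the regulator Srebf2 fell by 0.64 (GC-adjusted −0.34). In glycolysis 11 of 33 genes rose and 12 fell, and Hk2, which traps glucose in the cell, rose by 0.49. In the lysosome 20 of 51 rose and 16 fell (9 fell without replicate 2 of the proliferative group, and 6 with library size alone), and the list median of 0.07 was −0.02 without replicate 1 of that group.

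Markers of other cell types were read to different extents. Of the defining markers Adipoq and Plin1 of adipocytes, Ptprc of immune cells, Kdr and Tie1 of endothelium, Epcam and Cdh1 of epithelium, Sox10 and Rbfox3 of the nervous system and Acan and Comp of cartilage, none was among the genes tested, although other markers of the same lists were. Whether each had fewer than 10 counts over the 12 libraries or no usable count was not told apart. Of 16 bone and cartilage markers 9 were tested, with a summed normalised read count of 21369 to 23474 in the proliferative and 33707 to 37146 in the differentiated libraries, most of it the matrix protein gene Spp1. Of 7 tendon markers 4 were tested, with sums of 3336 to 4795 and 5598 to 11447, most of it Egr1, and of 14 nerve and glia markers 8, with sums of 747 to 801 and 1051 to 1117, most of it in differentiated libraries the microtubule gene Map2. The 3 adipocyte markers tested had sums of 273 to 339 and 357 to 397, the 6 immune markers 439 to 519 and 489 to 545, and the 2 epithelial markers 149 to 207 and 15.1 to 27.9. Of 15 fibroblast and progenitor markers 12 were tested, of which Clec3b, Dcn, Dpt and Pi16 rose and 5 fell, among them Smoc2 and the surface marker Ly6a, and their summed normalised read count was 47903 to 57209 in the proliferative and 50511 to 52101 in the differentiated libraries. Pdgfra, the surface marker of that lineage, was read at 5247, 5051 and 4729 and 3986, 3933 and 4144 (log2 fold change −0.32, SE 0.09, adjusted p = 0.0047). The groups did not overlap, and in WT cells Pdgfra rose by 0.41. Of 10 pericyte and smooth muscle markers 9 were tested, 6 fell and Notch3 rose, and their sum was 76364 to 118522 in the proliferative and 31983 to 34169 in the differentiated libraries, most of it Acta2. Of 11 endothelial markers 8 were tested and 5 fell, with a sum of 615 to 794 and of 265 to 312. The part of other cell types in the changes of matrix and actin genes was not tested.

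The response of Gne KO cells was compared with that of WT cells by the interaction term of the same fit. In WT cells 3381 genes rose (16.6%) and 3115 fell (15.3%). The change of Gne KO cells was more positive than that of WT cells in 4012 genes (19.7%) and more negative in 4533 (22.2%), 8545 in all, and 6905 passed after GC adjustment. Of the 11511 genes that passed in Gne KO cells and the 6496 that passed in WT cells, 4539 passed in both (39.4% and 69.9%), 3799 with the same direction and 740 with opposite directions. Of the latter 352 were higher and 388 lower in differentiated Gne KO cells. The GC trend of the proliferative Gne KO libraries enters this comparison.

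Among genes that differed most, Fbln7, a fibulin of cell adhesion, was read at 397, 719 and 528 and 47.0, 36.8 and 57.6 in Gne KO cells and at 16.5, 12.2 and 14.8 and 67.2, 60.7 and 57.2 in WT cells (interaction −5.53, adjusted p = 1.3e-06). Npnt, nephronectin, a ligand of integrins, fell from 341, 347 and 319 to 82.6, 67.0 and 81.7 and rose in WT cells from 1018, 288 and 309 to 1545, 1668 and 1315. The switch thus moved both genes in opposite directions in the 2 cell types, and replicate 1 of the WT proliferative group stood above its replicates in Npnt. Wisp2, a secreted regulator of WNT signals, fell by 4.37 with 462, 424 and 613 and 24.3, 21.6 and 24.1, and was read at means of 110.1 ± 40.5 and 141 ± 20.7 (SD, n = 3) in WT cells. Galnt18 had changes of −4.56 in Gne KO and 0.36 in WT cells. Myh4, the fast myosin IIb, was read at 0.988, 1.16 and 0 and 0.869, 0 and 11.1 in Gne KO cells and rose from 30.3, 5.55 and 12.6 to 400.0, 482 and 347 in WT cells.

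In the other direction 7 of the 8 strongest are described. Pi15 and Igfbp4 rose in both cell types, by 5.69 and 4.90 in Gne KO and by 2.06 and 1.18 in WT cells. The other 5 were gene models without a name (Gm38253, Gm38372, Gm43300, Gm44667 and Gm49204), which rose in Gne KO cells by 3.24 to 5.67 and, after GC adjustment, by 1.61 to 4.22.

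**Figure D5:**
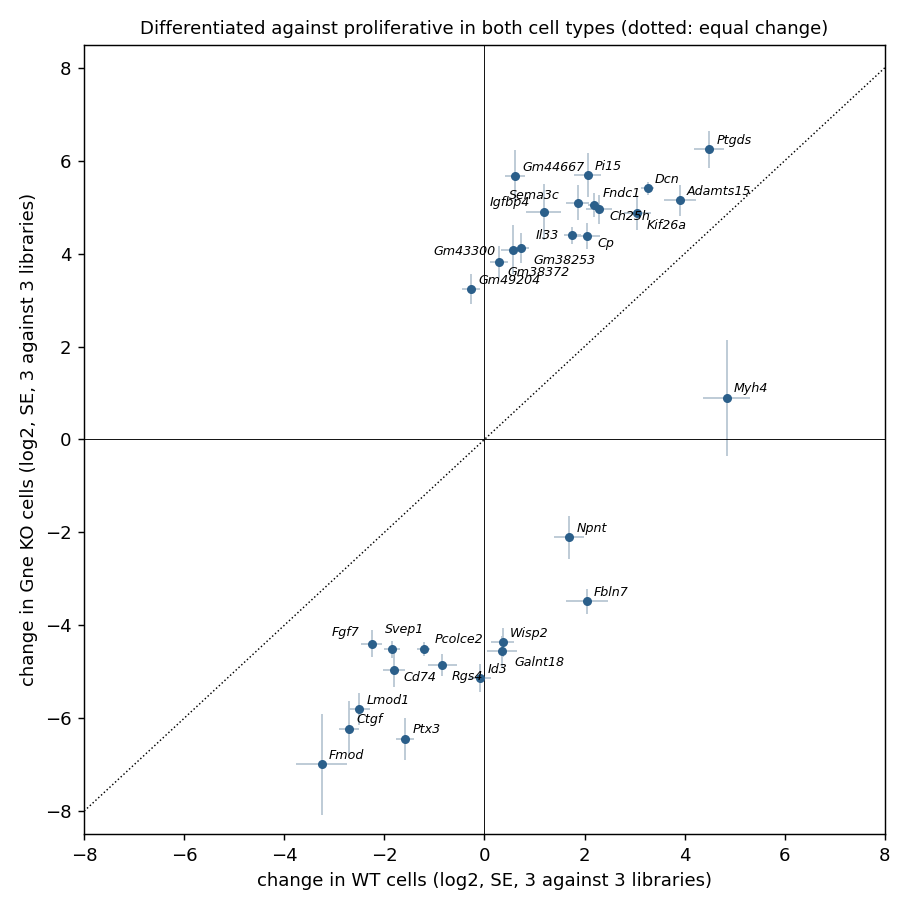
Log2 change from the proliferative to the differentiated state in Gne KO cells (y) against WT cells (x), with bars of 1 SE and 3 against 3 libraries on each axis, for the described genes with the strongest change in Gne KO cells and those with the strongest difference between the cell types. The points lie farther from 0 on the y axis than on the x axis, Id3 at −0.09 and Ptgds at 4.49 in WT cells among them. This follows largely from the choice of the genes and says nothing of genes at large. The exception is Myh4 with 4.84 in WT cells against 0.90 in Gne KO cells.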

How the data were processed

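mRNA of 12 libraries in 4 groups of 3 was sequenced after a stranded mRNA preparation. Per the submitters' processing notes, reads were trimmed with cutadapt 1.18, aligned to GRCm38 with TopHat2 2.1.1, counted per gene with HTSeq 0.6.1 and analysed by the authors with DESeq2 1.22.1. The deposited values used here are raw read counts of 54838 genes, not normalised, with question marks in place of counts in 6252 of them, which were left out. The strand setting of the counting was not given in the sources used here. Genes whose exons overlap another gene are uncertain. The deposited table also holds 12 columns of normalised counts, which were not used, and the authors' own comparisons, which hold fold changes and p-values and were not used.

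Genes with at least 10 counts over the 12 libraries (20415) were normalised by TMM (trims of 30% on log ratios and 5% on levels) and fitted with limma voom (limma 3.58.1, R 4.3.3) with 1 mean per group and 1 spread per gene, and p-values were adjusted by Benjamini-Hochberg. Voom took the place of a count model because of the mixed column. The effect filter of the study asked for an adjusted p under 0.05, a mean normalised count m of at least 5 and a log2 fold change of either sign whose size exceeded 0.9 + 7.5/√m. The median SE of a log2 fold change was 0.107 among genes with a mean of at least 100. The fit was tested on simulated data that had the same dispersion in all genes and no trend in GC content. That test therefore says nothing of the trend in the proliferative Gne KO libraries. The members and the gene lists were chosen with earlier results of these data known. The same-numbered libraries of the 2 Gne KO groups did not deviate together (correlations −0.247, −0.153 and −0.254), so the numbers were not used as pairs. No pair of replicates agreed within counting error (chi-square per gene 5.16 to 65.6).

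Genes were named by rule: the 12 strongest rises and falls under the criteria given with them, preselected genes of each list, the most abundant members of each list that passed, and the 8 strongest interactions in each direction. Chosen after their values were seen were Actg1, Adamts4, Adamts5, Angpt1, Apcdd1, Ccne1, Cdc20, Clec3b, Cnn2, Col12a1, Cxcl10, Dll1, Eda2r, Fabp5, Fbln1, Fgfr2, Fhl2, Hgf, Insr, Irs1, Kif20b, Lama2, Ly6a, Myl9, P4ha3, Pdgfb, Plk1, Plod2, Pmaip1, Rspo2, Sgo2a, Smad9, Smc2, Spred3, Spry1, Spry4, Tead4, Trp53inp1 and Ube2c. Some genes that the rule picks are not reported here.

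Alternatives were library size alone or median-of-ratios size factors in place of TMM, no filter on low counts or a stricter one, limma-trend, sample quality weights, a replicate block, the GC and length trend removed, a fit of the 6 Gne KO libraries alone, other thresholds, and leaving out each library. A fit of the Gne KO libraries without replicate 1 of the proliferative group was added after seeing the data.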

Additional observations from a re-analysis of the deposited data

Results flagged for a closer look

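In the genes below the change of Gne KO cells differed from that of WT cells by the interaction term of limma voom (adjusted p under 0.05), given as the change in Gne KO cells minus that in WT cells on the log2 scale. The strongest negative differences were −5.53 for Fbln7, −5.05 for Id3, −4.92 for Galnt18, −4.86 for Ptx3, −4.74 for Wisp2, −3.94 for Myh4, −3.80 for Npnt and −3.74 for Fmod. Among the strongest positive ones were 5.06 for Gm44667, 3.72 for Igfbp4, 3.63 for Pi15, 3.54 for Gm38372, 3.51 for Gm49204, 3.51 for Gm43300 and 3.38 for Gm38253.

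Of the other genes described, those that passed in both cell types with opposite directions had differences of −3.48 for Tead4, −2.39 for Irf7, −1.61 for Timp2, −1.01 for Myc, −0.89 for Jun and −0.73 for Pdgfra, which were lower in differentiated Gne KO cells and higher in differentiated WT cells. The reverse was true of Slc7a11 (2.81), Spp1 (2.58), Tnc (1.74), Smc2 (1.60), Kif20b (1.47), Lpp (1.24) and Smc4 (1.14). Smc2, Kif20b, Lpp and Smc4 changed sign in Gne KO cells after removal of the GC and length trend. Irf7, Myc and Jun no longer passed the test in Gne KO cells after that removal.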

How the results depend on the processing

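The 1397 genes called higher and 989 called lower stayed within 1.5 times under every alternative except 3. With the trend in GC content and exonic length removed 697 were called higher, with library size alone 557 were called lower, and by adjusted p alone 5863 and 5648 passed. The interaction was lower in 2818 genes with library size alone against 4533. Leaving out 1 library at a time gave 1204 to 1789 called higher, 806 to 1207 called lower, 3425 to 4675 interactions higher and 3665 to 5320 lower. Members of the gene lists that passed numbered 244 to 291 higher (main 269) and 656 to 747 lower (main 706). The share of called genes that were higher was 58.5%, against 78.3% with library size alone, 39.2% after the trend was removed, 50.9% by adjusted p alone and between 57.0% and 66.2% under the other settings. Of the 42 list medians 13 changed sign with library size alone and 3 after the trend was removed (chemokines, interferon genes and glycolysis). Among 174 named genes that passed, 153 kept their call and direction under all 22 alternatives. With the trend removed Smc4 turned to −0.54, Sgo2a to −0.67, Smc2 to −0.53, Lpp to −0.23, Cenpe to −0.17 and Kif20b to −0.17. Cenpf, at 0.07, was among 8 genes that lost their call, as were Irf7, Myc and Jun. The replicate block gave 1367 called higher and 992 lower, and the numbers did not pair the libraries. Under the replicate block Sgo2a no longer passed and Mef2c passed as lower (−1.42). The causes of these shifts were not tested. Genes with few counts in 1 state, such as Fmod, have SEs of up to about 1 on the log2 scale, and their fold changes depend on the prior count.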
